A study of Homo sapiens with 18 samples.

Results

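The effect of a YAP knockdown on the transcriptome was compared between 2 human lung cancer cell lines, H1299 and A549. The comparison is an interaction, which asks of each gene whether its change after siYAP in A549 differs from its change in H1299. It drew on 12 of the 18 libraries of the study: 3 of H1299 with siControl, 3 of H1299 with siYAP, 3 of A549 with siControl and 3 of A549 with siYAP. All 4 groups had received 30 nM siRNA and were harvested 48 h after transfection, and in all of them serum was absent for the final 18 h. siYAP was a SMARTpool, a mixture of siRNAs directed at the transcript of YAP1, and the controls carried the study's control siRNA. The medium was RPMI-1640 for H1299 but DMEM for A549, and each line was deposited as its own table, so line, medium and experiment cannot be told apart. RNA was enriched for poly(A) before sequencing. Whether a replicate number stands for its own culture is not stated in the labels, so each p-value reflects library-to-library spread that could be technical only.

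YAP and its paralog TAZ (gene WWTR1) are transcriptional co-activators that the Hippo kinases LATS1 and LATS2 hold in the cytoplasm. In the nucleus they bind TEAD factors and raise transcription of genes such as CYR61 and CTGF, of cell cycle genes and of genes of adhesion and matrix. Both lines are models of non-small cell lung cancer. A549 lacks functional LKB1 and KEAP1 and has lost CDKN2A.

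The 6 H1299 libraries held 16778743 to 20772851 reads assigned to genes, and the 6 A549 libraries 10692671 to 44983651. CDKN2A was present at 72.9 to 109.1 CPM (counts scaled to the size of the library) in the 6 H1299 libraries and is not listed in the A549 table. Summed epithelial markers were at 757 to 849 CPM in H1299 and at 5986 to 7852 CPM in A549, and the summed mesenchymal markers at 3274 to 4381 and 1052 to 1377 CPM. Blood cell markers summed to at most 8.74 CPM. In these bulk libraries fewer cells in a given state and less RNA per cell cannot be told apart.

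YAP1 itself, at chr11:102110461-102233423 in GRCh38, was lowered in both lines, and by less in A549. Its level in the H1299 siControl libraries was 77.1, 77.4 and 72.02 CPM, against 11.99, 18.1 and 10.9 CPM with siYAP. In A549 the values were 66.8, 64.4 and 66.5 CPM with siControl and 18.995, 17.5 and 22.4 CPM with siYAP. The groups did not overlap in either line, and the highest H1299 siYAP value, that of replicate 2, lay within the range of the A549 siYAP libraries. The log2 change was -2.49 ± 0.11 (standard error) in H1299 and -1.76 ± 0.11 in A549, which left 18.1% and 29.8% of the control level. The difference, taken throughout as the log2 change in A549 minus that in H1299, was 0.73 ± 0.15 (edgeR adjusted p = 0.0130). Changes and differences are log2 values throughout, and where 2 changes of a gene are given together H1299 stands first. The knockdown was thus less deep in A549, and the part of this in the differences of other genes was not tested.

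WWTR1, the gene of TAZ, fell in H1299 from 245, 255 and 212 CPM to 162, 187 and 156 CPM. In A549 it was at 196, 203 and 201 CPM and, with siYAP, at 177, 184 and 176 CPM. The log2 changes were -0.50 ± 0.06 and -0.16 ± 0.06, and the difference of 0.34 passed the test (edgeR adjusted p = 0.0225). CYR61, a secreted matricellular protein and standard YAP readout, was at 465, 238 and 484 CPM in H1299 controls and 145, 159.6 and 154 CPM with siYAP. A549 levels were 23.7, 21.8 and 30.4 CPM and 15.4, 15.4 and 21.9 CPM. The control with the low value was H1299 replicate 2, and even so the H1299 groups did not overlap. Its difference of 0.79 ± 0.24 missed the threshold (edgeR adjusted p = 0.0581), with a 95% interval of 0.28 to 1.29. CTGF, its relative, fell by 0.73 on the log2 scale in H1299 and had a change of -0.47 ± 0.13 in A549, with a difference of 0.26 (-0.09 to 0.60, edgeR adjusted p = 0.352).

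**Figure D1:**
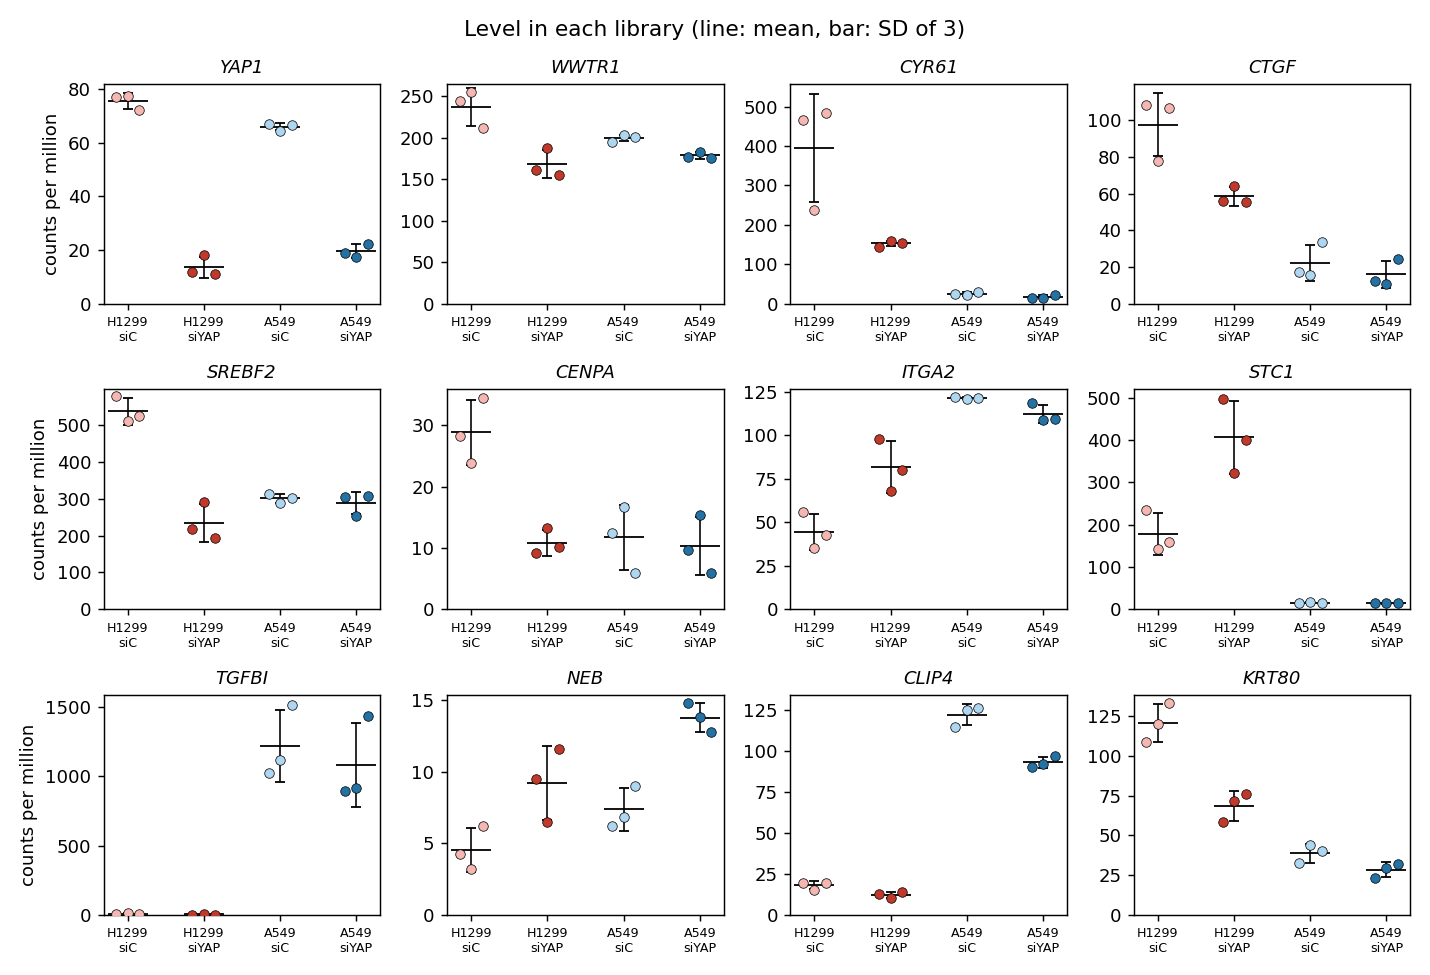
Level of 12 genes in every library, in CPM on a linear axis from 0 (points, 3 libraries per group in the order of replicate number; line, mean; bar, SD). YAP1 falls in both lines. The H1299 groups are apart for SREBF2, CENPA, ITGA2 and STC1, whose A549 values stay close or overlap, and NEB, CLIP4 and KRT80 move the same way in both lines.

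Across all genes the siYAP change was larger in H1299. Of 13465 genes measured in both lines, 998 (7.41%) changed differently in the 2 lines at an edgeR adjusted p below 0.05. The difference was above 0 for 568 of them (4.22%) and below 0 for 430 (3.19%). Of these 998 genes, 985 had the larger absolute change in H1299 and 13 had it in A549. In 627 of the 985 the A549 change had the same sign, and in 358 the opposite one. The SD over genes of the log2 change was 0.362 in H1299 and 0.160 in A549. A change of at least 2-fold either way was seen for 255 genes (1.89%) in H1299 and for 5 genes in A549.

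siYAP raised 2318 genes (17.2%) and lowered 2530 (18.8%) in H1299, whereas in A549 the same model called 5 genes (0.0371%), YAP1, CLIP4, EIF4EBP2, KRT80 and NEB. At an unadjusted p below 0.05 the A549 term held 987 genes. That model gives all libraries 1 measure of spread per gene. The spread left after libraries of the same replicate number were paired was larger in H1299. For this remaining spread the common biological coefficient of variation was 0.0872 in H1299 alone and 0.0360 in A549 alone. When the 6 A549 libraries were fitted by themselves, 477 genes (3.54%) were lower and 296 (2.2%) higher with siYAP. The 6 H1299 libraries fitted by themselves gave 1594 genes higher and 1602 lower, fewer than in the shared model. The shares of all genes in H1299 given below come from the shared model. A limma voom fit with 1 weight per line called a difference for 1332 genes (9.89%), 959 of them shared with the 998. The limma fit and the fits of each line alone were chosen after seeing the data.

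The count of 998 depends on how the replicate numbers are used. It came from a model in which libraries of 1 line with the same replicate number form a pair, the replicate block. In H1299 the values do not establish that same-numbered libraries belong together. Without the block no gene passed in edgeR, and 1506 genes had an unadjusted p below 0.05. The sign of the difference was the same for all 998 genes. They were chosen for their differences in the same libraries, so this agreement is no independent support. With the block in A549 alone, as in the authors' models, 129 genes passed. With it in both lines, 157, 3439 and 462 genes passed without H1299 replicates 1, 2 and 3, and 180, 90 and 155 without A549 replicates 1, 2 and 3, in fits with fewer libraries. DESeq2 with the block called 567 genes. For 5 of the gene lists below, the edgeR fits with 1 replicate left out gave 0 to 33 replication genes (7 with all libraries), 2 to 14 immediate early factors (8), 2 to 14 integrin and focal adhesion genes (8), 1 to 13 matrix proteins (8) and 1 to 8 signature genes (6), each highest without H1299 replicate 2, and the fit without the block gave 0 for each of the 5.

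**Figure D2:**
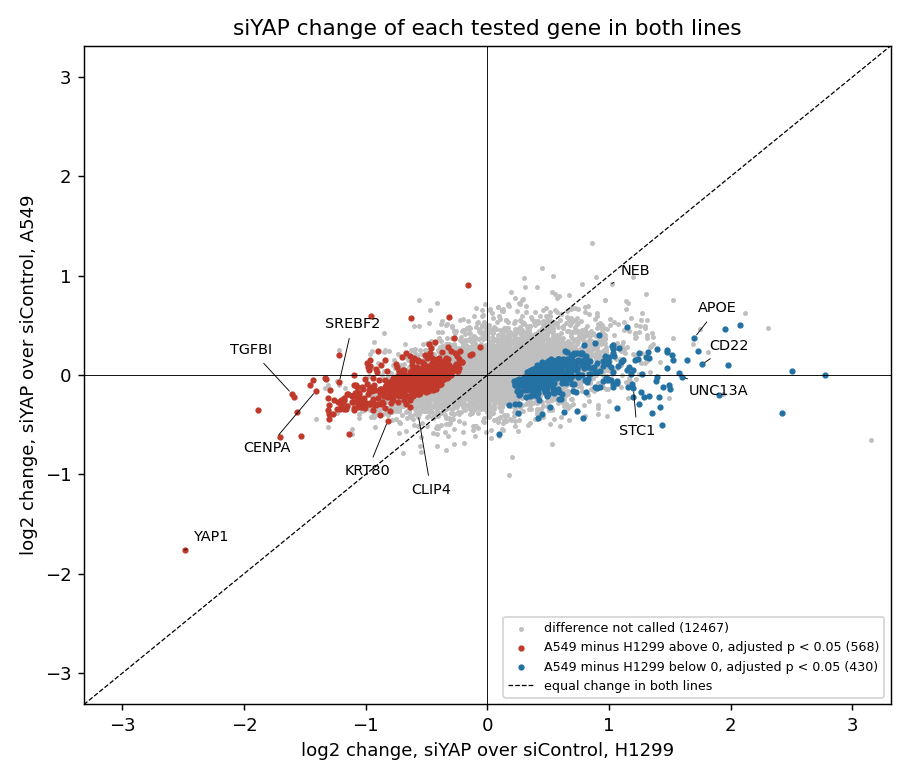
log2 change with siYAP over siControl for each of the 13465 tested genes in H1299 (x axis) and A549 (y axis). Genes with a called difference (red, A549 minus H1299 above 0; blue, below 0) lie along the H1299 axis near an A549 change of 0; NEB, KRT80 and CLIP4 lie near the dashed line of equal change.

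The direction in A549 followed that in H1299 more often than not. Genes that rose in H1299 had an A549 change above 0 in 74.4% of cases, with a median log2 change of 0.42 in H1299 and 0.07 in A549. Genes that fell in H1299 had an A549 change below 0 in 79.8%, with medians of -0.36 and -0.08. Over all tested genes 49.5% were above 0 in A549. Across the 13465 genes the changes had a Pearson correlation of 0.42, given as a description, since genes of 1 library are not independent.

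Of the gene lists, that of mitosis had the highest share of called differences, and its genes fell in H1299 by more than in A549. Mitosis genes encode the cyclin B-CDK1 kinase, the spindle checkpoint and the kinesins and kinetochore proteins that separate chromosomes, and they are transcribed in G2 and M phase. All 40 listed genes were lower in H1299, against 18.8% of all genes. Their median log2 change there was -1.03, with a range of -1.41 to -0.56. All 40 had a change below 0 in A549, between -0.39 and -0.07 with a median of -0.27. The difference was called in 29 of the 40 and was above 0 in each of these, against 4.22% of all genes. In the fit of A549 alone 31 of the 40 were lower, against 3.54% of all genes. Without the replicate block the count of differing mitosis genes was 0 of 40. It was 2, 40 and 6 without H1299 replicates 1, 2 and 3, and 5, 1 and 3 without A549 replicates 1, 2 and 3.

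CENPA, the histone H3 variant of centromeres, showed the largest difference of the list. It was at 28.2, 23.8 and 34.4 CPM in H1299 controls and 9.23, 13.3 and 10.1 CPM with siYAP. In A549 it was at 12.5, 16.6 and 5.99 CPM and 9.60, 15.4 and 5.98 CPM, where the replicates differed more than the treatments and the groups overlapped. The log2 change was -1.41 ± 0.14 in H1299 and -0.16 ± 0.16 in A549 (difference 1.25, edgeR adjusted p = 0.00495). CCNB1, cyclin B1, fell from 175, 212 and 249 CPM to 73.2, 125 and 83.5 CPM in H1299. In A549 its level was 125, 156 and 70.4 CPM, then 98.2, 122 and 61.8 CPM, lower with siYAP in 3 of 3 pairs. The changes of -1.20 and -0.30 differed by 0.90 ± 0.15 (edgeR adjusted p = 0.00455). BIRC5, survivin, a subunit of the chromosomal passenger complex, had changes of -1.30 and -0.30 (difference 1.00, edgeR adjusted p = 0.00646). PLK1, the Polo-like kinase of mitotic entry, had changes of -1.18 and -0.25 (difference 0.93, edgeR adjusted p = 0.00926).

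The H1299 pairs did not agree in size. The median change over the mitosis list was -1.22, -0.41 and -1.44 in H1299 pairs 1, 2 and 3, and -0.33, -0.25 and -0.19 in the A549 pairs. Pair 2 of H1299 is the one with the highest YAP1 level left after siYAP, and it lies between the other H1299 pairs and the A549 pairs without reaching the latter. Whether the depth of the knockdown sets this order was not tested.

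Most DNA replication genes were lower in H1299, with A549 changes of the same sign. The list holds the MCM helicase, origin licensing factors, polymerases and enzymes of nucleotide supply, which are transcribed at the start of S phase. Of 44 genes, 42 were lower in H1299 (18.8% of all genes), and all 44 had an A549 change below 0, from -0.56 to -0.04. The medians were -0.49 in H1299 and -0.20 in A549, and 7 differences were called, all above 0 (4.22% of all genes). Among them were DUT, TYMS, RPA2, TK1, LIG1 and POLA1, of which TYMS, thymidylate synthase, had changes of -0.95 ± 0.12 and -0.16 ± 0.13 (edgeR adjusted p of the difference 0.0170), and DUT, the dUTPase, had -0.81 and -0.11 (edgeR adjusted p 0.0114). TYMS, DUT and TK1 act in thymidylate supply. In A549 alone 21 of the 44 were lower, against 3.54% of all genes.

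The median change over the replication list was -0.76, -0.14 and -0.69 in the H1299 pairs and -0.23, -0.26 and -0.13 in the A549 pairs. Here the second H1299 pair lay within the range of A549, so the larger change in H1299 rested on pairs 1 and 3. In 24 recombination and Fanconi anaemia genes the second H1299 pair was smaller than every A549 pair, with -0.76, -0.05 and -0.79 in H1299 and -0.16, -0.24 and -0.22 in A549. Of these 24, 20 were lower in H1299 (18.8% of all genes). In 1 of them a difference above 0 was called, a share close to the 4.22% of all genes. RBBP8, the CtIP end-resection factor, had this difference, with changes of -0.53 and -0.07 (edgeR adjusted p = 0.0182).

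Mitosis and replication genes also differ in their promoters, which the choice of genes did not use. Genes expressed in G2 and M phase commonly carry the cell cycle homology element, TTTGAA, near the start site, bound by the MuvB complex, together with CCAAT boxes for NF-Y. Promoters, taken as 250 bases before to 50 after the start in RefSeq on GRCh38.p14, were found for 10201 of the 13465 tested genes and searched on both strands. TTTGAA occurred in 73.5% of 34 mitosis promoters, in 2.63% of 38 replication promoters and in 9.19% of all. Among genes that fell in H1299 and had a called difference it occurred in 14.96% of 468, and among those that rose with a called difference in 7.38%. The group that fell includes the 29 mitosis genes with a called difference, so its share is not independent of the mitosis share. CCAAT was held by 76.5% of mitosis, 57.9% of replication and 36.5% of all promoters. The TEAD motif GGAATG was held by 10.5% of promoters of genes that fell in H1299 with a called difference and by 10.5% of all. Matches of different motifs may share letters at their ends, and a match describes the letters only.

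The promoters of 2 mitosis genes with a called difference, CENPA and PLK1, are shown beside those of 2 replication genes, CDC6 and MCM10. CDC6 and MCM10 were counted as alike only in the limma fit chosen after seeing the data. The main fit did not call them in A549 (edgeR adjusted p 0.551 and 0.562). These 4 genes were chosen by hand, and whether the motifs go with the line difference was not tested. Of 31 promoters of genes lower alike in that limma fit, 12.9% held TTTGAA and 48.4% CCAAT. Of the 468 promoters of genes that fell in H1299 with a called difference, 14.96% held TTTGAA and 45.1% CCAAT. The contrast in TTTGAA among the 4 sequences is thus far larger than between these groups. Capitals mark TTTGAA and CCAAT on either strand (ATTGG is CCAAT read on the other strand), and each sequence runs 5′ to 3′ along the plus strand, which all 4 genes use.
CENPA, chr2:26785806-26786105, 1 TTTGAA and 2 CCAAT: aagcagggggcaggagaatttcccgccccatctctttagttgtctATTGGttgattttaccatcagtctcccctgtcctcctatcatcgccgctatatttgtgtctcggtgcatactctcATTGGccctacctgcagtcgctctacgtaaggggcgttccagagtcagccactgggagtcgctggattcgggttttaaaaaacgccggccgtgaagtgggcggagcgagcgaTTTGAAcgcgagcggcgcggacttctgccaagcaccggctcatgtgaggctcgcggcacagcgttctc
PLK1, chr16:23678639-23678938, 1 TTTGAA and 1 CCAAT: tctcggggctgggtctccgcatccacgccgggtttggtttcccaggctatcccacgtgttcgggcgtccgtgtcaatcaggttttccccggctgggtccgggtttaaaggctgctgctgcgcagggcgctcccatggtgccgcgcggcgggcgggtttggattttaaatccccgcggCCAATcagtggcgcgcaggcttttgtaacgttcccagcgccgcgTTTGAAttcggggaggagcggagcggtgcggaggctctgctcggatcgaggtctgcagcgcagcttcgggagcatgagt
CDC6, chr17:40287629-40287928, 0 TTTGAA and 3 CCAAT: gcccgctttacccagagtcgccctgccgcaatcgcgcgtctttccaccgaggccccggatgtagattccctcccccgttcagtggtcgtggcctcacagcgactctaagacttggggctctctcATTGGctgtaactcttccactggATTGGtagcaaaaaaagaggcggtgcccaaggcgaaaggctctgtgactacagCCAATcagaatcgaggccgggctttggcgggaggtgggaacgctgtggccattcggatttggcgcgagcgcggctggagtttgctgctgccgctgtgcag
MCM10, chr10:13161308-13161607, 0 TTTGAA and 2 CCAAT: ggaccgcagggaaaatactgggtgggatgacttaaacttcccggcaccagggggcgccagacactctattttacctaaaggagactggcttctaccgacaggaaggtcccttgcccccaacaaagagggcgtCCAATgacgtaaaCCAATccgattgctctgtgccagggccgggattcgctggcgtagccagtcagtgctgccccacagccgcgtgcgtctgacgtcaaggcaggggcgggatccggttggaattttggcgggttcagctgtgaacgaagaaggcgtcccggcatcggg

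**Figure D3:**
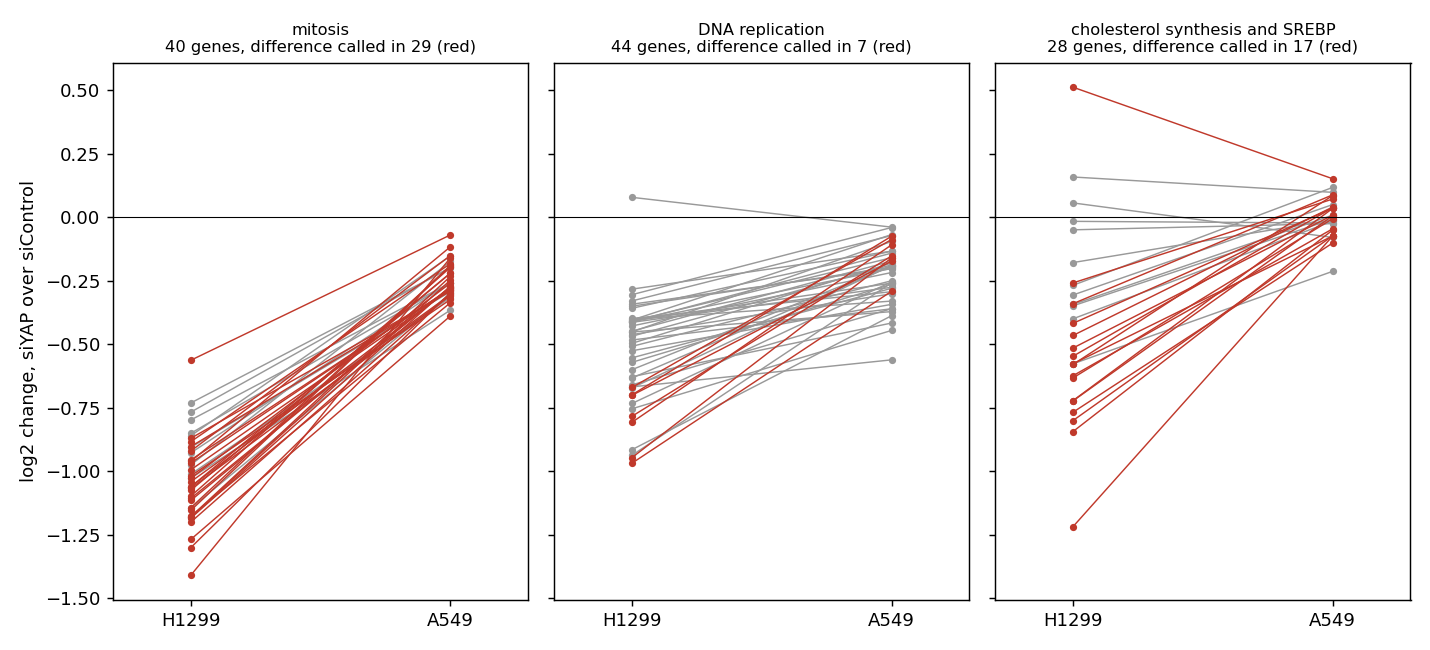
log2 change with siYAP of each member of 3 gene lists in H1299 and A549, 1 line per gene (red where the difference between cell lines was called). All 40 mitosis genes and all 44 replication genes are below 0 in A549, while the cholesterol genes end on both sides of 0 there.

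Cholesterol synthesis genes fell in H1299 with no matching change in A549. These genes are driven by SREBP-2, the product of SREBF2, which turns on the pathway from acetyl-CoA through squalene to cholesterol when membrane sterol is low. Of 28 genes tested, 22 were lower and 2 higher in H1299, with a median log2 change of -0.44. In A549 the median was 0.00, with 14 of 28 below 0 and a range of -0.21 to 0.15. The difference was called in 17 genes, above 0 in 16 (4.22% of all genes) and below 0 in 1 (3.19%), and 18.8% of all genes were lower in H1299. In A549 alone 1 member was lower and 1 higher, against 3.54% and 2.2% of all genes. The count of 17 was 0 without the replicate block, 2, 24 and 9 without H1299 replicates 1, 2 and 3, and 2, 2 and 3 without A549 replicates 1, 2 and 3.

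SREBF2, at chr22:41833079-41907308, was at 579, 511 and 524 CPM in H1299 controls and 219, 291 and 193 CPM with siYAP. The A549 levels were 313, 289 and 303 CPM and 305, 253 and 307 CPM. The H1299 groups were far apart and the A549 groups overlapped, and the changes of -1.22 ± 0.10 and -0.07 ± 0.10 differed by 1.14 ± 0.14 (edgeR adjusted p = 0.00106). FDPS, farnesyl diphosphate synthase, was at 608, 604 and 502 CPM and 274, 447 and 259.7 CPM in H1299 and at 227, 189 and 191 CPM and 229.7, 177 and 183 CPM in A549. SQLE, squalene epoxidase, had changes of -0.63 and -0.01 (edgeR adjusted p 0.0121). TM7SF2, a sterol reductase, was the member with a difference below 0, since it rose by 0.51 in H1299. The median change over the list was -0.61, -0.14 and -0.57 in the H1299 pairs and 0.01, -0.02 and 0.03 in the A549 pairs, so the second H1299 pair was again the smallest. The media of the lines differ, and their part in this difference cannot be told apart from the line.

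Lipid efflux genes that passed the test in H1299 were all higher. Of 10 tested genes of lipid efflux and LXR, the sterol-sensing nuclear receptor, 5 rose in H1299 (17.2% of all genes). In this list 4 differences were called, all below 0, against 3.19% of all genes. APOE, the lipoprotein that carries exported lipid, was at 10.95, 12.1 and 9.92 CPM in H1299 controls and 44.9, 25.1 and 39.2 CPM with siYAP. In A549 it was at 4.61, 4.57 and 9.37 CPM and 5.70, 5.51 and 13.6 CPM, higher in 3 of 3 pairs. The changes of 1.70 ± 0.15 and 0.38 ± 0.18 differed by -1.33 (edgeR adjusted p = 0.00646). The transporters ABCA3, which loads lamellar bodies, and ABCA2 rose by 0.45 and 0.33 in H1299, with A549 changes of 0.07 and 0.04 (edgeR adjusted p of the differences 0.0209 and 0.0434).

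Most NF-kB genes fell in H1299, and the median was similar in its 3 pairs. NF-kB is a family of dimeric factors held by inhibitors such as IκBα and feeding back on its own regulators. Of 15 tested genes 11 were lower in H1299, with a median of -0.47 against -0.06 in A549. Of all genes 18.8% were lower in H1299. Differences were called in 6, all above 0, against 4.22% of all genes. The pair medians were -0.50, -0.56 and -0.43 in H1299 and -0.06, -0.07 and -0.04 in A549, so that the second H1299 pair, small for the cell cycle lists, was not small here. The count of 6 was 0 without the replicate block and 2 to 7 when 1 replicate was left out, below 4 without A549 replicate 1, 2 or 3 (3, 3 and 2). BIRC3, the ubiquitin ligase cIAP2, was at 184, 180.2 and 118 CPM in H1299 controls and 98.1, 76.3 and 56.5 CPM with siYAP. A549 levels were 22.3, 26.7 and 22.4 CPM and 19.3, 21.9 and 19.3 CPM. Its changes of -1.07 ± 0.07 and -0.25 ± 0.08 differed by 0.82 (edgeR adjusted p = 0.00132). NFKBIA, which encodes IκBα, had changes of -0.69 and -0.07 (edgeR adjusted p 0.00465), and RELB had -0.57 and 0.02 (edgeR adjusted p 0.0108).

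Of 21 immediate early factors, the first genes induced by growth signals, 12 fell in H1299 (18.8% of all genes) and 3 rose (17.2%). In 8 of them a difference was called, 7 above 0 (4.22% of all genes) and 1 below (3.19%). JUN, a subunit of AP-1, was at 163, 228 and 118 CPM and 90.6, 147 and 89.3 CPM in H1299, and at 41.9, 37.9 and 91.4 CPM and 38.1, 39.6 and 93.9 CPM in A549. It had changes of -0.63 ± 0.07 in H1299 and 0.00 ± 0.08 in A549 (difference 0.63, edgeR adjusted p = 0.00558). The JUN levels of H1299 overlapped between the groups, with replicate 2 high in both. They were lower with siYAP in 3 of 3 same-numbered pairs, a pairing that is not established in H1299. KLF6 had changes of -0.66 and -0.01 (edgeR adjusted p 0.00183). ATF3, a stress-induced bZIP factor, had changes of -1.46 ± 0.16 and -0.10 ± 0.14 (edgeR adjusted p 0.00309), from control levels of 8.57, 9.91 and 6.13 CPM in H1299. SPRY4, a feedback inhibitor of receptor tyrosine kinase signalling, was the member with a difference below 0, with changes of 0.39 and -0.17.

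Regulators of cell death and of the G1 phase differed in both directions. PMAIP1, the BH3-only protein NOXA, was at 17.9, 17.9 and 17.2 CPM in H1299 controls and 6.09, 8.77 and 6.67 CPM with siYAP. In A549 it was at 18.6, 20.99 and 25.5 CPM and 18.6, 17.4 and 19.7 CPM. Its changes of -1.31 ± 0.12 and -0.23 ± 0.11 differed by 1.08 (edgeR adjusted p = 0.00218). CDKN1A, the CDK inhibitor p21, fell by 0.67 on the log2 scale in H1299 and had a change of -0.11 in A549 (edgeR adjusted p of the difference 0.0121). Among 20 CDK inhibitors and G1 regulators, CDK6, the G1 kinase, had changes of -0.73 and -0.08 (edgeR adjusted p 0.00465) and its inhibitor CDKN2C had -0.75 and 0.11 (edgeR adjusted p 0.00677). CCNE1, cyclin E1, rose by 0.41 in H1299 and had a change of -0.21 in A549 (edgeR adjusted p 0.0108).

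The genes with the most negative differences rose in H1299. STC1, stanniocalcin, a secreted glycoprotein hormone, was at 233, 142 and 158 CPM in H1299 controls and 496, 322 and 400.2 CPM with siYAP. The A549 levels were 14.3, 16.5 and 15.8 CPM and 13.8, 14.02 and 15.3 CPM, far below H1299 in every library. Its changes of 1.20 ± 0.06 and -0.13 ± 0.09 differed by -1.33 ± 0.11 (edgeR adjusted p = 3.84e-05). CD22, a sialic acid-binding lectin best known on B cells, rose from 1.53, 2.53 and 4.10 CPM to 7.82, 5.12 and 15.1 CPM in H1299, and stayed between 16.1 and 20.7 CPM in the 6 A549 libraries. UNC13A, a synaptic vesicle priming factor, rose from 2.01, 2.75 and 2.70 CPM to 8.39, 6.50 and 7.73 CPM, and in A549 was at 38.02, 45.3 and 23.3 CPM and 37.6, 43.1 and 24.4 CPM. The differences were -1.66 ± 0.23 and -1.61 ± 0.18 (edgeR adjusted p = 0.00194 and 0.000339). NOV, a matricellular protein of the family of CYR61 and CTGF, rose in H1299, where CYR61 and CTGF fell, with changes of 1.06 ± 0.11 in H1299 and -0.06 ± 0.10 in A549 (edgeR adjusted p of the difference 0.00166). LMTK3, a membrane kinase, SNCG, gamma-synuclein, and B3GNT3, a glycosyltransferase, completed the 8, with differences of -1.24, -1.15 and -1.13. VGF, a neuropeptide precursor, was at 236, 240.5 and 192 CPM and 672, 513 and 591 CPM in H1299 but at no more than 2.80 CPM in A549, so its difference of -1.63 (edgeR adjusted p = 0.00218) compares a well expressed gene with a scarce transcript.

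At the other end, TGFBI, a secreted matrix protein induced by TGF-beta, had the most positive difference among the named genes, 1.42 ± 0.18 (edgeR adjusted p = 0.00132). It was at 7.94, 13.04 and 4.62 CPM and 1.92, 5.71 and 1.10 CPM in H1299, and at 1028, 1119 and 1516 CPM and 896, 917 and 1436 CPM in A549. The level was thus far higher in A549, where the change was -0.19 ± 0.08 and lower with siYAP in 3 of 3 pairs. KITLG, the ligand of the KIT receptor, had changes of -1.33 ± 0.13 and -0.04 ± 0.10 (edgeR adjusted p 0.00132), ARL6IP1, a protein that shapes the endoplasmic reticulum, had -1.59 and -0.22 (edgeR adjusted p 0.00279), and OSTM1, a lysosomal membrane protein, had -1.57 and -0.37 (edgeR adjusted p 0.00428). SPATA5, an AAA ATPase, had changes of -0.90 and 0.24.

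Adhesion and matrix genes moved in both directions in H1299 and differed both ways. Of 28 integrin and focal adhesion genes 4 had a difference above 0 and 4 below, and of 26 matrix proteins likewise 4 and 4. The shares over all genes were 4.22% above 0 and 3.19% below. ITGA2, the collagen-binding integrin α2, was at 55.8, 35.003 and 42.8 CPM in H1299 controls and 97.7, 68.03 and 79.99 CPM with siYAP. In A549 it was at 122, 121 and 121 CPM and 118, 109 and 109.7 CPM, with no overlap of the groups. Its changes of 0.89 ± 0.06 and -0.12 ± 0.06 differed by -1.01 ± 0.08 (edgeR adjusted p = 4.21e-05). ITGA5, the fibronectin receptor subunit, rose by 0.68 in H1299 and had a change of 0.07 in A549 (edgeR adjusted p 0.00406), while CAV2, caveolin-2, had changes of -0.73 and 0.04 (edgeR adjusted p 0.00234).

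THBS1, thrombospondin 1, an antiangiogenic matrix glycoprotein, was at 70.9, 48.5 and 40.7 CPM in H1299 controls and 37.9, 22.8 and 17.2 CPM with siYAP, and at 74.2, 62.6 and 72.1 CPM and 69.3, 59.4 and 63.3 CPM in A549. Its changes of -1.07 ± 0.07 and -0.12 ± 0.07 differed by 0.95 (edgeR adjusted p = 0.000339). PLOD2, the lysyl hydroxylase that prepares collagen for cross-linking, fell in H1299 and had one of the larger values in A549. It was at 109, 79.5 and 90.7 CPM and 26.2, 36.5 and 23.7 CPM in H1299 and at 237, 210.4 and 284 CPM and 155, 137 and 181 CPM in A549, where the groups did not overlap. The changes were -1.70 ± 0.12 and -0.63 ± 0.11 (edgeR adjusted p 0.0692 for A549 and 0.00302 for the difference), and in the fit of A549 alone its adjusted p by edgeR was 7.31e-24. FN1, fibronectin, had changes of -0.34 and 0.18 (edgeR adjusted p of the difference 0.0111), and SERPINE2, a protease inhibitor, had 0.83 and -0.04 (edgeR adjusted p 0.00210). Of 23 TGF-beta ligands and response genes 5 differed above 0 (4.22% of all genes) and 2 below (3.19%). Among them were ID1 at -0.61 and 0.02 and PMEPA1 at -0.61 and -0.04.

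The 20 tested genes of the conserved YAP/TAZ target signature had medians below 0 in every pair of both lines. These were -0.13, -0.17 and -0.13 in H1299 and -0.12, -0.19 and -0.06 in A549. In H1299 8 were lower (18.8% of all genes) and 3 higher (17.2%), and the medians of the fitted changes were -0.13 in H1299 and -0.10 in A549, close to each other. The difference was above 0 in GADD45A, NUAK2, IGFBP3 and TGFB2 (4.22% of all genes), and below 0 in FJX1 and CCDC80 (3.19%). IGFBP3, a carrier of insulin-like growth factors, was at 5.77, 3.30 and 7.01 CPM and 3.28, 1.58 and 2.65 CPM in H1299 and at 170.0, 174 and 186 CPM and 185, 165 and 183 CPM in A549, a far higher level. It had changes of -1.10 ± 0.14 and 0.00 ± 0.07 (edgeR adjusted p of the difference 0.00183). TGFB2, a TGF-beta ligand, fell by 0.92 on the log2 scale in H1299 and had a change of -0.30 ± 0.09 in A549, with lower values in 3 of 3 pairs (edgeR adjusted p of the difference 0.0187). CCDC80, a secreted matrix protein, rose from 15.5, 19.5 and 15.1 CPM to 30.5, 27.3 and 26.6 CPM in H1299, against 51.7, 50.5 and 51.97 CPM and 57.5, 53.5 and 58.1 CPM in A549 (edgeR adjusted p of the difference 0.00921). In A549 alone 8 of the 20 genes were lower and 0 higher, against 3.54% and 2.2% of all genes.

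Of 27 genes of the Hippo pathway, its scaffolds and the TEAD factors, YAP1, WWTR1 and NF2 had called differences. These were above 0, as in 4.22% of all genes. NF2 encodes merlin, the upstream activator of the kinases, and was at 78.3, 57.4 and 68.6 CPM in H1299 controls and 32.7, 42.7 and 31.997 CPM with siYAP, against 22.2, 24.7 and 26.1 CPM and 21.6, 21.6 and 25.9 CPM in A549. Its changes of -0.93 ± 0.12 and -0.10 ± 0.13 differed by 0.84 (edgeR adjusted p = 0.0128). In H1299 13 of the 27 were lower (18.8% of all genes) and 1 was higher, and in A549 alone 10 were lower (3.54% of all genes).

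**Figure D4:**
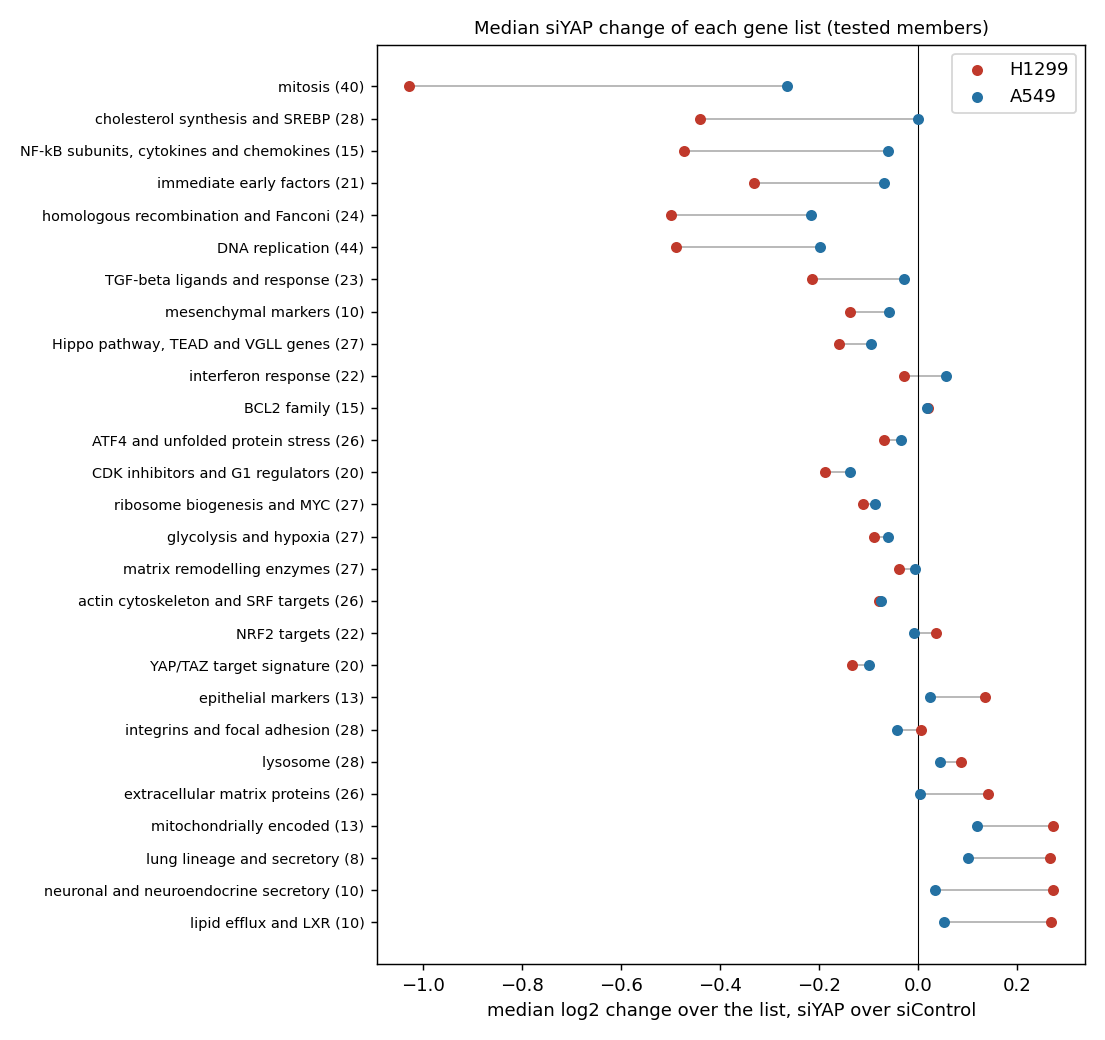
Median log2 change with siYAP of the tested members of each gene list (number in brackets) in H1299 (red) and A549 (blue), for the lists reported here with at least 5 tested members. The longest line is that of mitosis, followed by cholesterol synthesis and NF-kB; the YAP/TAZ target signature and actin lists have nearly equal medians.

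The number of genes that responded alike depended on the fit. Genes called in both lines with the same sign numbered 476 when each line was fitted alone and 111 in the line-weighted fit. A gene was counted as alike when edgeR called it in both lines with the same sign and the 95% interval of the difference lay within 1.5-fold either way, and 3 genes (0.0223%) met this. NEB, nebulin, the giant actin-binding protein of muscle thin filaments, was at 4.23, 3.19 and 6.18 CPM in H1299 controls and 9.51, 6.45 and 11.6 CPM with siYAP. A549 levels were 6.18, 6.85 and 9.02 CPM and 14.8, 13.8 and 12.7 CPM. The siControl and siYAP groups did not overlap in either line, and the changes of 1.02 ± 0.15 and 0.92 ± 0.13 had a difference of -0.10 (-0.53 to 0.33, edgeR adjusted p = 0.806). CLIP4, a protein with the CAP-Gly domain of microtubule-binding proteins, was at 19.3, 15.1 and 19.6 CPM and 12.5, 9.95 and 14.01 CPM in H1299 and at 115, 125 and 126 CPM and 90.3, 91.8 and 97.1 CPM in A549. Its changes were -0.57 ± 0.08 and -0.39 ± 0.06, with a difference of 0.18 (-0.03 to 0.38, edgeR adjusted p = 0.275). KRT80, an epithelial keratin, fell from 109, 120.3 and 133 CPM to 58.1, 71.6 and 76.3 CPM in H1299 and from 32.4, 44.1 and 39.8 CPM to 23.3, 29.6 and 32.2 CPM in A549. Its A549 groups met at the edge, since 32.4 CPM was the lowest control value and 32.2 CPM the highest with siYAP. Its changes of -0.82 and -0.46 were within 1.5-fold of each other and also differed by the test (difference 0.36, 0.15 to 0.57, edgeR adjusted p = 0.0401). Without A549 replicate 3 the NEB difference was 0.08 in place of -0.10, and in the leave-one-out fits the count of alike genes ran from 0 to 79.

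Weighting the lines by their own spread, in the limma voom fit chosen after seeing the data, gave 57 alike genes (0.423%), 42 lower and 15 higher. All 3 of the genes above were among them. Of the 57, 8 also had a called difference in the same limma fit and 5 in edgeR, since the criterion allows a difference of less than 1.5-fold. STK38, a kinase related to LATS, was 1 of these, with changes of -0.67 and -0.29 (limma adjusted p of the difference 0.00881). LDHA, lactate dehydrogenase A, had -0.64 and -0.24 (limma adjusted p 0.00934), and SGSH, a lysosomal sulfatase, 0.60 and 0.29 (limma adjusted p 0.0462). CTGF was alike with no called difference, with changes of -0.73 and -0.47 (limma adjusted p 2.97e-05 and 0.0278), from 108, 77.7 and 107 CPM to 55.9, 64.1 and 55.2 CPM in H1299 and from 17.5, 15.4 and 33.4 CPM to 12.5, 11.003 and 24.6 CPM in A549. AMOTL2, an angiomotin that binds YAP, was another. It was at 84.2, 88.8 and 103 CPM and 57.6, 74.9 and 75.4 CPM in H1299 and at 55.7, 60.04 and 57.5 CPM and 35.04, 37.7 and 50.6 CPM in A549, with changes of -0.41 and -0.52 (limma adjusted p 0.00446 and 0.00158). TEAD4, the DNA-binding partner of YAP, had changes of -0.40 and -0.31.

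Some replication genes were among the alike genes. MCM10, CDC6, MCM5 and MCM6, which license and fire replication origins, were 4 of the 44, against 0.423% of all genes. Of the 40 mitosis genes 0 met the criterion, though the difference between the lists was not tested. MCM10 was at 33.01, 20.3 and 27.3 CPM in H1299 controls and 15.2, 19.4 and 15.7 CPM with siYAP, and at 13.02, 13.5 and 3.30 CPM and 9.50, 8.01 and 3.02 CPM in A549, where replicate 3 was low in both groups. Its changes were -0.68 and -0.61 (limma adjusted p 0.00201 and 0.0361). CDC6, the origin licensing ATPase, was at 69.1, 46.8 and 60.9 CPM and 39.7, 46.01 and 42.5 CPM in H1299 and at 50.1, 44.2 and 13.3 CPM and 38.3, 31.4 and 12.4 CPM in A549, with changes of -0.46 and -0.41 (limma adjusted p 0.00420 and 0.0278). H1299 replicate 2 hardly moved for CDC6, so its H1299 groups nearly met. DTL, the substrate receptor that targets CDT1 for destruction, and CDC25A, the phosphatase that activates CDK2, were also alike, with A549 changes of -0.45 and -0.54. E2F5, TGM2, NFKB2, DUSP1 and MCL1 were further alike genes, with H1299 changes between -0.65 and -0.38 and A549 changes between -0.37 and -0.24. Among the 15 alike genes that were higher, the small GTPase RAB26 had changes of 0.54 and 0.29. These genes were picked from the 57 after their values were seen.

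With all 12 libraries in 1 model, 0 genes were called in both lines with opposite signs by edgeR and 0 by DESeq2. These fits called 5 and 15 genes in A549, so few genes could meet the criterion. Opposite signs with an unadjusted p below 0.05 in each line and for the difference were found for 36 of 13465 genes. Without H1299 replicate 2 edgeR called 9 genes with opposite signs. In the edgeR fits of each line alone 13 genes were called in both with opposite signs. In the line-weighted fit 1 gene met the criterion, TNFRSF12A, the TWEAK receptor. It was at 241, 208 and 208 CPM in H1299 controls and 278, 229 and 279 CPM with siYAP. In A549 it was at 109, 103 and 173 CPM and 82.3, 77.1 and 165 CPM, lower in 3 of 3 pairs, with replicate 3 high in both groups. The changes of 0.26 ± 0.07 and -0.29 ± 0.08 differed by -0.55 (edgeR adjusted p = 0.00927).

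The 13 genes with a called difference and the larger absolute change in A549 were ANGPT1, CDKN1C, CLMP, DDX58, ENOSF1, FKBP5, FSTL3, GLYCTK, IFFO2, MARCH4, MBLAC1, PSD3 and TNFRSF12A. CDKN1C, the CDK inhibitor p57, was at 1.34, 1.47 and 1.13 CPM in A549 controls and 2.43, 2.18 and 3.55 CPM with siYAP, and at 2.49, 4.02 and 2.23 CPM and 2.11, 3.25 and 2.39 CPM in H1299. Its changes were -0.16 ± 0.20 in H1299 and 0.90 ± 0.23 in A549 (edgeR adjusted p of the difference 0.0448), at low counts in both lines. DDX58, the RNA sensor RIG-I, had changes of -0.06 and 0.29 (edgeR adjusted p 0.0477). FSTL3, a secreted activin inhibitor, had changes of 0.18 and -0.31 (edgeR adjusted p 0.0281). MARCH4, a membrane ubiquitin ligase, was at 100.4, 89.9 and 103 CPM and 101, 108 and 105 CPM in H1299 and at 6.70, 9.65 and 22.2 CPM and 4.75, 5.66 and 16.4 CPM in A549, with changes of 0.09 ± 0.07 and -0.59 ± 0.10 (edgeR adjusted p 0.00689). Its difference was -0.69, and its H1299 groups overlapped.

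All 3 pair changes of 1 line lay on 1 side of all 3 of the other for 27.9% of all tested genes. It held for 27 of the 40 mitosis genes, 20 of the 28 cholesterol genes and 9 of the 15 NF-kB genes, against 9 of 44 replication genes and 3 of 24 recombination genes. Of the 98 genes that the naming rule gave, 54 overlap another annotated gene, and since the use of strand in counting is not given, their counts can hold reads of the neighbour.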

How the data were processed

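Poly(A) RNA-seq of H1299 and A549 with siControl or siYAP was used (12 of 18 libraries, grouped by their titles). Reads were trimmed with cutadapt, aligned with STAR 2.4.2a to GRCh38 and analysed with DESeq2, per the submitters' processing notes. Which tool, annotation and strand setting assigned reads to genes is not stated in labels or headers. Raw counts per gene symbol, with the authors' own log2 fold changes, were deposited as 1 table per line. The deposited log2 fold changes were used to find the authors' models: DESeq2 without a batch term gave them within 0.001 for 100% of H1299 genes, and with a batch term of replicate number for 99.995% of A549 genes.

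From the counts, 17094 symbols were in both tables, and 13465 passed edgeR's filterByExpr in each line. Genes measured in 1 line only were not tested (284 genes at 5 CPM or more in H1299, 526 in A549). TMM factors and edgeR 4.0.16 quasi-likelihood tests (R 4.3.3) were used, with replicate number within line as a block, 1 siYAP term per line and Benjamini-Hochberg adjustment over all genes tested, called at 0.05. Replicate numbers come from the titles, and within a line the descriptions of same-numbered samples share a prefix. The block was chosen because the authors' A549 fold changes carry the replicate number. Deviations from the group mean correlated at 0.11 to 0.15 between same-numbered H1299 libraries and at 0.44 to 0.72 in A549. In H1299 1 pair of different numbers reached 0.112 and 1 of the same number 0.106, so these values do not establish a pairing there. Replicates differed beyond sampling noise, with a chi-square per degree of freedom of 7.40 or more. The tests were tried on simulated counts with known changes. CPM values used TMM factors, and pair changes a prior count of 2. Motifs were searched in RefSeq promoters (GRCh38.p14), found for 10201 tested genes, and 98.4% of tested symbols were in GENCODE 29.

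Named genes were YAP1, WWTR1, CYR61 and CTGF. Then, among protein-coding genes of at least 5 CPM in each line, the 8 largest called differences in each direction whose pairs did not overlap between lines, and genes changed alike or oppositely. From each of 30 lists up to 3 members with the smallest adjusted p of the difference were added, and signature members with a called difference. The lists for endothelium and fibroblasts and for blood cells had 0 tested members. The members and lists were chosen with earlier results of these data known. Alternatives were other blocks, DESeq2 1.42.0, other scaling and filters, and each replicate left out. A limma 3.58.1 voom fit with 1 weight per line and fits of each line alone were added after seeing the data. siTAZ libraries entered 1 alternative only. Some genes, and 1 gene list, are not reported here.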

Additional observations from a re-analysis of the deposited data

Results flagged for a closer look

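The 81 named genes below were singled out because the edgeR test of the difference itself passed, so the siYAP effect of the 2 lines differed. Each value is the log2 change in A549 minus that in H1299, and a value above 0 belongs to a gene that was lowered more, or raised less, in H1299.

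Most genes below were picked as the members of their list with the smallest adjusted p. Their signs therefore do not stand for whole lists. Over all genes 4.22% had a called difference above 0 and 3.19% below. The cell cycle and genome genes named here had mostly positive values. Mitosis genes had 1.25 for CENPA, 1.00 for BIRC5 and 0.90 for CCNB1, replication genes 0.79 for TYMS, 0.70 for DUT and 0.63 for RPA2, and the recombination factor RBBP8 0.46. CDK inhibitors and G1 regulators had 0.86 for CDKN2C, 0.64 for CDK6 and -0.62 for CCNE1. Cell death and growth arrest genes had 1.08 for PMAIP1, 0.56 for CDKN1A and 0.53 for RRM2B. The oncogene MYC had 0.38.

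In sterol and lipid genes the values were 1.14 for SREBF2, 0.79 for FDPS and 0.67 for HSD17B7, and in efflux genes -0.29 for ABCA2, -0.38 for ABCA3 and -1.33 for APOE. Amino acid transporters of the ATF4 response had 0.87 for SLC7A11, 0.38 for SLC1A5 and 0.36 for SLC3A2, and SLC7A11 is an NRF2 target too. Other NRF2 targets had 0.41 for TKT and -0.85 for ABCC3. Hypoxia and glucose transport genes had 0.50 for ADM, 0.46 for SLC2A1 and 0.42 for SLC2A3.

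The signalling genes named here had mostly positive values. The TGF-beta list, of which 3 members with values above 0 are given, held 5 differences above 0 and 2 below. NF-kB genes had 0.82 for BIRC3, 0.62 for NFKBIA and 0.58 for RELB, immediate early factors 1.36 for ATF3, 0.65 for KLF6 and 0.63 for JUN, TGF-beta genes 1.42 for TGFBI, 0.63 for ID1 and 0.57 for PMEPA1, and interferon genes 0.56 for IRF1, 0.35 for DDX58 and -0.42 for STAT2. The Hippo list held 0.84 for NF2, 0.73 for YAP1 and 0.34 for WWTR1. The target signature held 1.10 for IGFBP3, 0.63 for NUAK2, 0.62 for TGFB2, 0.43 for GADD45A, -0.44 for FJX1 and -0.63 for CCDC80.

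Adhesion, matrix and cytoskeleton genes went both ways. The values were 0.76 for CAV2, -0.61 for ITGA5 and -1.01 for ITGA2 in focal adhesion, 0.95 for THBS1, 0.57 for LAMB3 and 0.51 for FN1 in the matrix, 1.07 for PLOD2, 0.56 for LOXL2 and -0.86 for SERPINE2 in its remodelling, and 0.74 for DIAPH3 and 0.35 for TPM4 in the actin list. Epithelial markers had 0.55 for DSP, -0.53 for KRT8 and -0.67 for KRT7, and KRT80 had 0.36.

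Lysosomal genes had 1.19 for OSTM1, -0.42 for GAA and -0.51 for CTSB, lung secretory genes -0.42 for LPCAT1 and -0.97 for CPS1, and neuronal secretory genes -0.36 for PCSK1N, -1.61 for UNC13A and -1.63 for VGF. Genes of no list had 1.37 for ARL6IP1, 1.29 for KITLG and 1.14 for SPATA5 above 0, and -1.12 for NOV, -1.13 for B3GNT3, -1.15 for SNCG, -1.24 for LMTK3, -1.33 for STC1 and -1.66 for CD22 below 0. KRT7 is at no more than 2.41 CPM in H1299 and CPS1 at no more than 3.58 CPM, so their H1299 changes come from low counts.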

How the results depend on the processing

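Without the replicate block the fit called 0 differing genes (1506 at an unadjusted p below 0.05), 1870 in H1299, 1 in A549 and 0 alike. With the block in A549 alone the counts were 129 differing, 2 in A549 and 0 alike, and with all 18 libraries 1806, 17 and 8. DESeq2 gave 567 differing, 3174 in H1299 and 15 in A549. With no filter, and with 1 filter over all 12 libraries, A549 had 11 calls each. The line-weighted limma fit gave 161 in A549, 57 alike and 1 opposite, and the lines fitted alone 3196 in H1299 and 773 in A549. Leaving out 1 replicate gave 90 to 3439 differing, 2422 to 6110 in H1299, 1 to 291 in A549, 0 to 9 opposite and 0 to 79 alike, the highest each time without H1299 replicate 2. The cause was not tested, beyond the smaller number of libraries. The NEB difference of -0.10 ran from -0.23 (without A549 replicate 1) to 0.083 (without A549 replicate 3), a change of sign. The sign of the 998 differences held in the fits listed, with counts of 906 at 5 CPM or more and 997 without A549 replicate 2. These fits share most of their libraries with the main one, so held signs are no independent support. Genes not tested in a fit are left out of its count, so a lower count need not mean a changed sign. Of the 98 named genes, 81 lost their call without the block and none changed sign. The median 95% interval of a difference spans 0.275 on the log2 scale to either side. That interval is not adjusted for the number of genes tested. For a typical gene a difference therefore had to be larger than 0.275 to be called.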

Other observations

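The 13 genes encoded by the mitochondrial genome all had changes above 0 in A549, from 0.09 to 0.15, and a median of 0.12 there against 0.27 in H1299. The H1299 pairs had medians of 0.31, 0.52 and -0.03 and the A549 pairs 0.08, 0.03 and 0.25, so the lines overlapped. By edgeR 0 differences were called (7.41% of all genes), and the line-weighted limma fit called 1 (9.89% of all genes). In edgeR 1 had an unadjusted p below 0.05, against 3301 of all 13465 genes. MT-ND3, a subunit of complex I, came nearest, with 0.47 ± 0.08 in H1299 and 0.11 ± 0.08 in A549 (edgeR adjusted p of the difference 0.0609).

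Ribosome biogenesis genes and actin genes had close medians in the lines, -0.11 and -0.09 for 27 ribosome genes and -0.08 in both for 26 actin genes. They held 1 and 2 called differences, and 7.41% of all genes had one. Of 10 mesenchymal markers, 0 differed by edgeR (7.41% of all genes) or by the line-weighted limma fit (9.89%). In edgeR 4 had an unadjusted p below 0.05, against 3301 of all 13465 genes. ZEB2, a repressor of E-cadherin, came near with changes of 0.43 in H1299 and -0.06 in A549 (edgeR adjusted p 0.0763). Of 13 epithelial markers 3 differed: the desmosome gene DSP fell by 0.53 on the log2 scale in H1299 and had 0.02 in A549, and KRT8 rose by 0.37 in H1299 and had -0.16 in A549.

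Of 28 lysosome genes 12 rose (17.2% of all genes) and 4 fell (18.8%) in H1299, and 2 differences were above 0 and 2 below. Over all genes 4.22% had a called difference above 0 and 3.19% below. Differences above and below 0 were called in 2 and 1 of 22 interferon genes, 3 and 2 of 22 NRF2 targets, 4 and 0 of 27 glycolysis and hypoxia genes, 3 and 0 of 26 ATF4 and protein stress genes, 2 and 4 of 27 matrix remodelling enzymes, 1 and 0 of 15 BCL2 family genes, 0 and 3 of 8 lung lineage genes, and 0 and 3 of 10 neuronal secretory genes.

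In A549, replicate 3 stood apart in some cell cycle genes with either siRNA, chosen after their values were seen. CENPA was at 5.99 and 5.98 CPM there, against 9.60 to 16.6 CPM in the other A549 libraries, and BIRC5 at 23.9 and 19.0 CPM against 33.9 to 60.9 CPM. CDKN1A was high in the same replicate, at 775 and 756 CPM against 299 to 383 CPM. CCNE1, cyclin E1, was not low there, at 30.7 and 27.5 CPM.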
